A study of Mus musculus with 4 samples.

Results

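The smooth muscle contractile apparatus was followed as 34 genes in sorted mouse lung mesenchymal cells with and without a conditional deletion of Dnmt1, the enzyme that copies DNA methylation onto new strands. The genes were picked by name from the deposited table of read counts, which lists 31247 genes, and all 34 had a row. After a filter on low counts 32 of them were tested, among 15210 genes in all. The 2 that the filter left out were Acta1 and Pln. Only 2 contractile genes passed the test at an adjusted p under 0.05 in edgeR, Actc1 and Cnn1, and both were higher in the deleted cells. They made up 6.25% of the contractile genes tested, while 7.61% of all tested genes passed. Most of the abundant genes, among them Acta2, Myh11, Myl9, Des and Flna, did not pass the test. Not passing does not show that a gene was unchanged.

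Smooth muscle contracts when calcium and calmodulin switch on myosin light chain kinase, which phosphorylates the regulatory light chain so that myosin pulls on actin filaments. Calponin, caldesmon and tropomyosin sit on those filaments, and dense bodies and adhesion plaques anchor them. Serum response factor, encoded by Srf, binds CArG boxes in many of these genes together with myocardin or the related MRTF proteins. In the neonatal lung the same genes mark airway and vascular muscle and the myofibroblasts of the growing alveolar wall.

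Both groups were myofibroblasts by their labels, taken at postnatal day 7 from the lung by sorting for the Pdgfrb-GFP reporter. The 2 conditional knockout (CKO) libraries carry Dnmt1-D/D, the deleted allele on both chromosomes, with PDGFRb-GFP and the pair Tbx4-rtTA and Tet-O-Cre, in which a Tbx4-driven transactivator turns on Cre in lung mesenchyme. The 2 wild-type (WT) libraries are labelled as wild type with PDGFRb-GFP, so that the reporter is shared and the transactivator and Cre are named in the CKO group alone. No doxycycline schedule is given in the labels used here, and cells of 1 sort need not all have recombined. Libraries are named by genotype and a letter in column order, which pairs nothing. The count columns of CKO A, CKO B and WT B open with a shared number that WT A lacks, and what it marks is not stated. Within those 3 libraries, without WT A, Actc1 had a log2 change of 1.31 (edgeR adjusted p = 0.0118) and Cnn1 one of 0.61 (0.0924).

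Depth ranged from 23071657 to 26420648 counted reads. Levels are given as CPM, in which reads are divided by the TMM-scaled library total. Dnmt1 stood at 78.1 CPM in CKO A and 29.5 in CKO B, against 144 in WT A and 115 in WT B. The log2 change of Dnmt1 of -1.27 ± 0.57 (SE, n = 2 per genotype) was not called by edgeR's quasi-likelihood test (adjusted p = 0.31, by Benjamini-Hochberg over all tested genes with a threshold of 0.05). Reads of the Y-linked gene Ddx3y numbered 2494 in CKO A and 0 in each of the other 3 libraries. CKO B and CKO A therefore differed in how much Dnmt1 RNA they held and in sex-linked reads. Pdgfrb, the gene of the sorted reporter, averaged 345 ± 40.0 CPM in CKO and 492 ± 20.6 in WT (SD, n = 2 each, edgeR adjusted p = 0.0546). It passed in DESeq2 (adjusted p = 0.00734), with library size alone (0.0372), with no filter (0.0151) and without CKO A (0.022). Of the markers of other cells, Epcam, of epithelium, stood at 0.259 to 0.685 CPM in CKO and 0.483 to 1.02 in WT. The whole epithelial list of 14 genes summed to 162 and 87.6 CPM in the CKO libraries, against 65.3 and 203 in the WT libraries, so that the WT libraries differed more from each other than the CKO libraries did. Ptprc, the pan-leukocyte gene, stood at 1.90 to 2.47 CPM in CKO and 0.922 to 1.62 in WT. Pecam1, of endothelium, stood at 15.9 to 29.0 CPM in CKO and 15.9 to 20.7 in WT. The labels name no separate litters, and any p-value here reflects only how much the libraries vary. In sorted bulk cells a smaller share of one cell type and less RNA per cell cannot be told apart.

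The promoters of the 2 called genes and of the most abundant one are shown because they differ in their CArG boxes. Each is the RefSeq window on GRCm38.p6 from 250 bases before to 50 bases after the RefSeq start site, 5′ to 3′ on the gene's strand. That site lies 673 bases from the GENCODE gene start given further on for Actc1, 37 for Cnn1 and 217 for Acta2, since GENCODE genes take in other transcripts. Capitals mark matches to the CArG box (CC, then 6 bases of A or T, then GG), or to the same pattern with 1 of the 6 central bases being G or C. The pattern reads the same on both strands. The windows lie at chr2:114052826-114053125 (minus strand) for Actc1, chr9:22099003-22099302 (plus strand) for Cnn1 and chr19:34255324-34255623 (minus strand) for Acta2.
Actc1: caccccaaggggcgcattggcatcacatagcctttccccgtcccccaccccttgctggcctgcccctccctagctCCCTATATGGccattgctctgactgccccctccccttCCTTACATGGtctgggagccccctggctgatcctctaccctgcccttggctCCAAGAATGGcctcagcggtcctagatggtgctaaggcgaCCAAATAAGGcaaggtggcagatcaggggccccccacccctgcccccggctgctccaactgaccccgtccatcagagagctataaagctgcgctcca
Cnn1: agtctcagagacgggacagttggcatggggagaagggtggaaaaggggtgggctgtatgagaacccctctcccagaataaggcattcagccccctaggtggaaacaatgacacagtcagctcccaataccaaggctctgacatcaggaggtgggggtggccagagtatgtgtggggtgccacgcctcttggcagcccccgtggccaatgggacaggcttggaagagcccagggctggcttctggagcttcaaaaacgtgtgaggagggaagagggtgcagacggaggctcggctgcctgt
Acta2: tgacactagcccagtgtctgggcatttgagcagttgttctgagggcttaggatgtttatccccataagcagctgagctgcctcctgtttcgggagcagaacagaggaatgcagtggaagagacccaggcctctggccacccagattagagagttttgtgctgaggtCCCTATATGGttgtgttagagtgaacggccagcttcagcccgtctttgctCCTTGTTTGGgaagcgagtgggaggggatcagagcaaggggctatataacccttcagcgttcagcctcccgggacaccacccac

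Actc1 held 1 full CArG box, beginning 47 bases before the RefSeq start site, and 3 matches with a single G or C at 175, 138 and 87 bases. Acta2 held 2 of the second kind, at 84 and 34 bases before the start, and Cnn1 held neither in this window. RefSeq windows were found for 30 of the 34 contractile genes, 35 windows in all. Actg2, Tagln, Myh11 and Myocd had no window, so CArG boxes were not searched for in them. A full box was in 7 of those 35 windows (20%) and in 1.63% of all 32851 mouse windows of the same length. The shares with either kind of match were 25.7% and 9.98%. Windows with a full box belonged to Acta1, Actc1, Cnn2, Myl6, Myl9, Srf and Vcl. The Actc1 window held 7 CpG dinucleotides, the Cnn1 window 6 and the Acta2 window 6, against a median of 15 over the contractile windows and of 7 over all windows. Matches are a description of these letters and not of binding.

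The 4 muscle actins are close paralogs, so a 60-base stretch of each coding sequence is shown to let their differences be seen. It runs from coding base 91 to 150 in Acta2, Actc1 and Acta1 and from 88 to 147 in Actg2, whose coding sequence is 1 codon shorter, read from GENCODE M21 transcripts. Capitals mark bases that differ from Acta2.
Actc1: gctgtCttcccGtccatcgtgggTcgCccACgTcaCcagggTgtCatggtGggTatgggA
Actg2: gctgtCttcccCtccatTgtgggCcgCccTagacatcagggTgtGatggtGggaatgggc
Acta1: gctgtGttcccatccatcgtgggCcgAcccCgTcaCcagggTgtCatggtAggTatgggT
Acta2: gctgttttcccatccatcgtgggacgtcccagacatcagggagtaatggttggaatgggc

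Over 1104 aligned coding bases Actc1 differed from Acta2 at 190, and the longest identical run was 23 bases. No 50-base stretch of an Actc1, Actg2 or Cnn1 transcript occurred in the transcript of another gene. The share of such stretches was 0.326% for Acta2. It was higher for Cnn3 (14.1%), Myl6 (16.7%) and Tpm4 (12.1%), which have processed copies, so their reads are less certain. The read length is not given in the sources used here.

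Among the tested actins Actc1 alone passed the test. Actc1 encodes cardiac alpha-actin, the main actin of heart muscle, and lies on chromosome 2 from 114047282 to 114053548 on GRCm38. It held 35.1 CPM in CKO A and 47.9 in CKO B, against 13.9 in WT A and 16.9 in WT B. Both CKO libraries lay above both WT libraries, and the higher of the CKO pair was CKO B. The rise was 2.69-fold, a log2 change of 1.43 ± 0.18 (SE, n = 2 per genotype, edgeR adjusted p = 0.00644). For Actc1 the log2 fold change in the authors' deposited table is 1.47 (their adjusted p = 1.89e-09). Over the other fits tried, its log2 change ran from 1.20 to 1.66 and it stayed below the threshold in each.

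Acta2, the smooth muscle alpha-actin that is the usual myofibroblast marker (chromosome 19, 34241090 to 34255590), was the most abundant contractile gene. It stood at 4057 CPM in CKO A and 3133 in CKO B, against 3391 in WT A and 3150 in WT B. The groups overlapped, with CKO A highest and CKO B lowest of the 4. Its log2 change was 0.14, with a 95% interval from -0.28 to 0.55 (edgeR adjusted p = 0.684). Without CKO A the value was -0.03. Actg2, the enteric smooth muscle gamma-actin, stood at 571 and 486 CPM in the CKO libraries, against 474 and 424 in the WT libraries. Its groups did not overlap, CKO being higher, and it did not pass (log2 change 0.23, adjusted p = 0.329). Acta1, the skeletal alpha-actin, had 10 and 4 reads in the CKO libraries, against 8 and 9 in the WT libraries. A difference of Acta1 was not detectable at this depth.

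**Figure D1:**
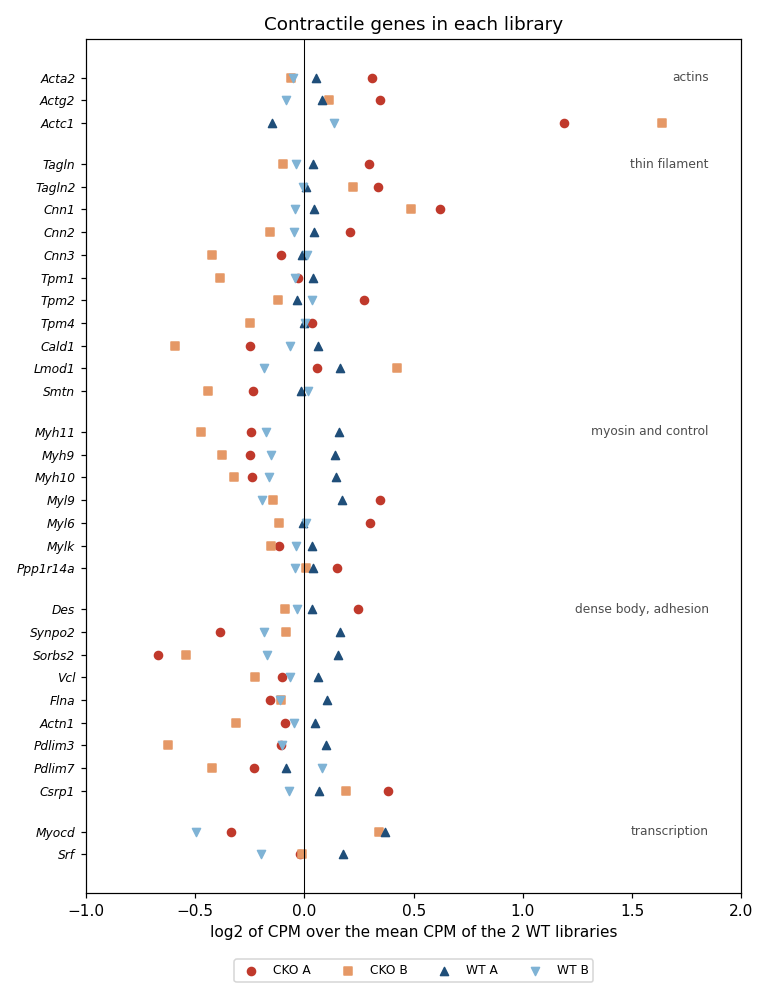
CPM of each of the 32 tested contractile genes in each library, as the log2 of its ratio to the mean of the 2 WT libraries, grouped by role. CKO points are red and orange and WT points are dark and light blue. Actc1 and Cnn1 have both CKO points far right of the WT points, and for most other genes CKO B (orange) lies left of CKO A (red).

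Cnn1 was the only gene of the filament-binding group to pass the test in the fit of all 4 libraries. It encodes calponin, which binds actin and slows the myosin ATPase in differentiated smooth muscle (chromosome 9, 22099216 to 22109630). Its level was 222 CPM in CKO A and 202 in CKO B, against 149 in WT A and 140 in WT B. The 2 genotypes were separated by more than the spread within either. The rise was 1.47-fold, a log2 change of 0.56 ± 0.11 (SE, n = 2 per genotype, edgeR adjusted p = 0.0262). That call was lost without WT A (log2 change 0.61, adjusted p = 0.0924) and without WT B (0.52, adjusted p = 0.173). In the authors' deposited table Cnn1 has a log2 fold change of 0.59 (their adjusted p = 0.00917).

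The paralogs of calponin did not pass. Cnn2, found in many cell types, averaged 596 ± 107 CPM in CKO and 581 ± 26.2 in WT (SD, n = 2 each). Cnn3, the acidic calponin, averaged 568 ± 87.3 CPM in CKO and 679 ± 8.17 in WT, both CKO libraries being below both WT libraries. The log2 changes were 0.04 (adjusted p = 0.907) for Cnn2 and -0.26 (adjusted p = 0.314) for Cnn3.

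Transgelin, encoded by Tagln and among the most specific proteins of smooth muscle, had few counted reads. It stood at 12.0 and 9.15 CPM in the CKO libraries, against 10.1 and 9.54 in the WT libraries, and did not pass (log2 change 0.11, adjusted p = 0.759). In GENCODE M21 67.9% of its exon bases overlap exons of Pcsk7 and Gm48529, which lie on the opposite strand. Pcsk7 was counted at 59.3 and 54.2 CPM in CKO and at 53.1 and 55.5 in WT. Reads of overlapping genes cannot be told apart where strand was not used. That limit also applies to Vcl (25.5% of exon bases), Cnn3 (17.7%) and Smtn (16.3%), the largest overlaps after Tagln and Pln. The part of the overlap in the low count of Tagln was not tested. Its paralog Tagln2, which is widely expressed, stood at 663 and 613 CPM in the CKO libraries, against 528 and 523 in the WT libraries. Its groups did not overlap, CKO being higher, but its log2 change of 0.28 had an interval from -0.003 to 0.56 (adjusted p = 0.203).

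Other filament-binding genes stayed within modest changes that did not pass. Cald1, encoding caldesmon, which blocks myosin from actin, stood at 1155 and 910 CPM in the CKO libraries, against 1437 and 1312 in the WT libraries. Its log2 change was -0.41 (adjusted p = 0.159), and -0.57 without CKO A, where it passed (adjusted p = 0.0468). Smtn, encoding smoothelin of contractile muscle cells, stood at 341 and 295 CPM in CKO, against 397 and 405 in WT (log2 change -0.34, adjusted p = 0.140). The tropomyosins Tpm1, Tpm2 and Tpm4, which cover the myosin sites on actin, had log2 changes of -0.20, 0.09 and -0.10. Lmod1, a leiomodin that nucleates actin filaments, had one of 0.25, all with an adjusted p of 0.392 or more. Of the 11 filament-binding genes 6 had a log2 change above 0 and 5 below.

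The myosin heavy chains Myh11, Myh9 and Myh10 were lower in both CKO libraries than in both WT libraries without passing the test. Of all tested genes 29.3% held that position. Without WT A the log2 changes of Myh11, Myh9 and Myh10 were -0.17, -0.15 and -0.11. Myh11, the smooth muscle heavy chain that marks differentiated muscle cells (chromosome 16, 14194535 to 14291372), stood at 1743 and 1490 CPM in CKO A and B, against 2307 and 1829 CPM in WT A and B. The gap between the WT libraries was thus larger than the gap from WT B to CKO A. Its log2 change was -0.36, with an interval from -0.75 to 0.04 (adjusted p = 0.244). Myh9 and Myh10, the nonmuscle chains IIA and IIB, had log2 changes of -0.31 (adjusted p = 0.274) and -0.28 (adjusted p = 0.309). Myh9 averaged 1794 ± 110 CPM in CKO and 2227 ± 319 in WT, and Myh10 averaged 1387 ± 54.4 in CKO and 1686 ± 251 in WT (SD, n = 2 each).

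Light chains and the enzymes that control them lay close to 0. Myl9, the smooth muscle regulatory light chain, averaged 731 ± 173 CPM in CKO and 672 ± 120 in WT (SD, n = 2 each, log2 change 0.12, adjusted p = 0.748). Myl6, the essential light chain, had a log2 change of 0.11 (adjusted p = 0.727). Mylk, the light chain kinase, averaged 1084 ± 20.4 CPM in CKO and 1190 ± 43.1 in WT. Its log2 change of -0.13 had an interval from -0.44 to 0.17 (adjusted p = 0.576). Ppp1r14a encodes CPI-17, which inhibits myosin phosphatase, and had a log2 change of 0.08 with an interval from -0.20 to 0.36 (adjusted p = 0.728). Pln, encoding phospholamban, the brake on the reticulum calcium pump, had 6 and 0 reads in the CKO libraries, against 4 and 11 in the WT libraries. Exons of Cep85l and Gm47644 on the other strand overlap 64.7% of its exon bases.

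Of the 9 genes of intermediate filaments, dense bodies and adhesion plaques none passed in edgeR's fit of all 4 libraries (background 7.61%). In that fit 1 of the 9 had an unadjusted p under 0.05, beside 1994 higher and 1833 lower of all 15210 tested genes. DESeq2 and limma-voom called 0 of the 9 as well (backgrounds 8.22% and 5.59%). Pdlim3, encoding a PDZ-LIM protein that binds alpha-actinin, stood at 625 CPM in CKO A and 437 in CKO B, against 721 in WT A and 626 in WT B. CKO B was far below the rest and CKO A was level with WT B. Its log2 change was -0.34 (adjusted p = 0.296), and -0.60 without CKO A, where it passed (adjusted p = 0.0346). Pdlim7, a related gene, averaged 313 ± 29.4 CPM in CKO and 391 ± 31.5 in WT (SD, n = 2 each, log2 change -0.32, adjusted p = 0.164).

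Csrp1 is a LIM protein gene of smooth muscle and itself a known SRF target. Of the 9 filament, dense body and adhesion genes it was the 1 with both CKO libraries above both WT libraries (background 27.7%). For 5 of the 9 both CKO libraries were below both WT libraries (background 29.3%), and for 3 the groups overlapped. Csrp1 stood at 1981 and 1734 CPM in the CKO libraries, against 1590 and 1446 in the WT libraries (log2 change 0.29, adjusted p = 0.270). Des, encoding the muscle intermediate filament desmin, averaged 908 ± 149 CPM in CKO and 854 ± 29.5 in WT (SD, n = 2 each, log2 change 0.09, adjusted p = 0.762). Flna, encoding the actin cross-linker filamin A, and Actn1, encoding alpha-actinin, had log2 changes of -0.13 and -0.20. Those of Vcl, encoding vinculin, and Synpo2, encoding a dense body protein, were -0.16 and -0.23. Sorbs2, an adaptor gene, had 28 and 27 reads in the CKO libraries, against 43 and 40 in the WT libraries (log2 change -0.60, adjusted p = 0.373).

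The transcription factors showed no common shift. Srf stood at 207 and 209 CPM in the CKO libraries, against 237 and 183 in the WT libraries, so that CKO lay within the WT range. Its log2 change was -0.02, with an interval from -0.34 to 0.31 (adjusted p = 0.957). Myocd, encoding myocardin, the muscle-restricted partner of SRF, stood at 66.7 CPM in CKO A and 107 in CKO B, against 109 in WT A and 59.9 in WT B. Each genotype held one high and one low library, and the interval of its log2 change ran from -1.04 to 1.12.

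**Figure D2:**
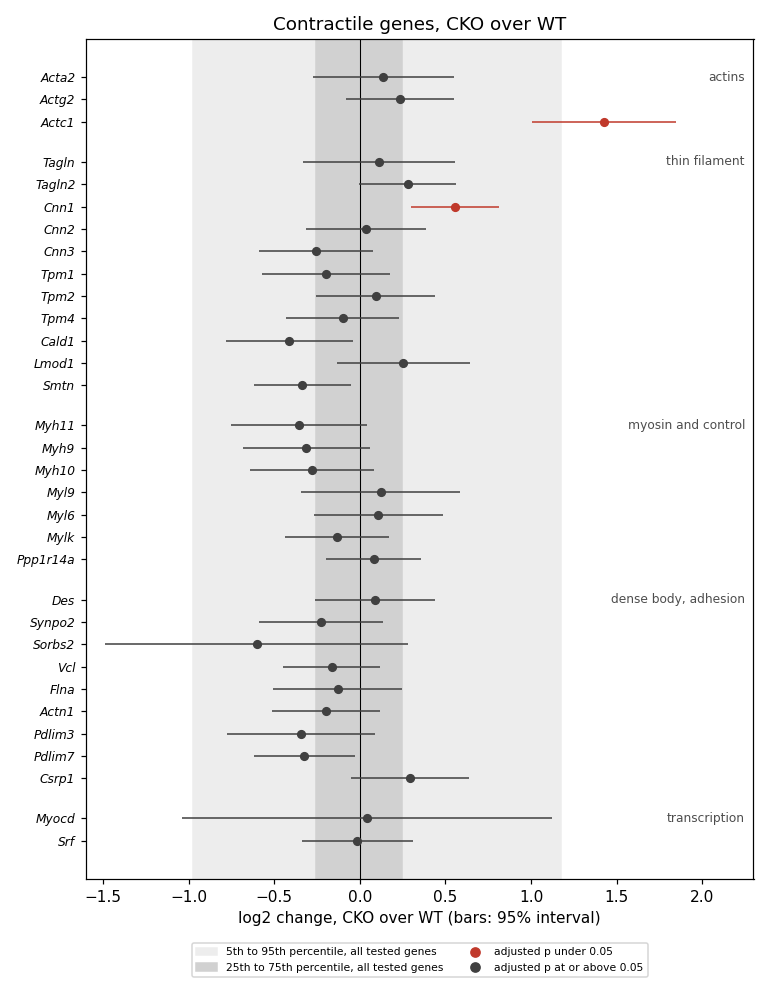
The log2 change of CKO over WT with its 95% interval for the 32 tested contractile genes, grouped by role, over bands that hold the middle of all 15210 tested genes. Actc1 and Cnn1 (red) are the genes with an adjusted p under 0.05, and most other intervals cross 0.

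Over the 32 tested genes, edgeR called 2 higher and 0 lower, where 4.85% of all tested genes were called higher and 2.75% lower. At an unadjusted p under 0.05 in edgeR, 2 of the 32 were higher and 3 lower, beside 1994 higher and 1833 lower of all 15210 tested genes. DESeq2 (8.22% of all genes called) and limma-voom (5.59%) likewise called Actc1 and Cnn1 higher and 0 contractile genes lower. At an adjusted p under 0.01 edgeR called Actc1 alone, beside 1.58% of all tested genes. The median log2 change was -0.06, beside -0.01 over all tested genes. Log2 changes within 0.5 of 0 were found for 29 of the 32 (90.6%), beside 73.6% of all tested genes. Both CKO libraries were higher than both WT libraries for 5 genes (15.6%), against a background of 27.7%, and lower for 12 genes (37.5%), against a background of 29.3%. Those 5 were Actg2, Actc1, Tagln2, Cnn1 and Csrp1. The 12 were Cnn3, Cald1, Smtn, Myh11, Myh9, Myh10, Mylk, Sorbs2, Vcl, Actn1, Pdlim3 and Pdlim7.

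The 2 CKO libraries did not show the same picture. CKO B was below both WT libraries for 20 of the 32 genes (62.5%), a position that 42.6% of all tested genes held. It was above both WT libraries for 6 of them (18.8%), beside 37.6% of all. CKO A was below both WT libraries for 14 and above both for 14 (43.8% each), beside 40.0% and 41.4% of all tested genes. CKO B was lower than CKO A for 25 genes, with a median log2 difference of -0.20, beside 0.00 over all tested genes. WT B was also lower than WT A for 25 genes (78.1%, beside 49.1% of all tested genes), with a median of -0.10, beside 0.00 over all. Without CKO A the fit called 2 contractile genes higher, Actc1 and Cnn1, and 2 lower, Cald1 and Pdlim3, where the backgrounds were 7.88% and 3.38%. Without CKO B it called the same 2 higher and 0 lower, where the backgrounds were 3.8% and 2.62%. In both directions together those backgrounds were 11.3% without CKO A and 6.42% without CKO B. Leaving out WT A or WT B left Actc1 as the 1 contractile gene called, where 3.64% and 2.14% of all genes were called. The contractile genes together took 2.82% of counted reads in CKO A and 2.41% in CKO B, against 2.92% in WT A and 2.73% in WT B.

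Levels between genes were compared per kilobase of exon, with the exons of all transcripts of a gene merged. In CPM per kilobase Acta2 led, with 1637 ± 297 in CKO and 1489 ± 77.3 in WT (SD, n = 2 each). Csrp1 came next, at 950 ± 89.4 in CKO and 776 ± 51.9 in WT, and then Myl9, at 629 ± 149 in CKO and 578 ± 103 in WT. Acta2, Csrp1 and Myl9 were separated from each other by more than 1 SD on either side in both genotypes. Flna, at 401 ± 9.98 in CKO and 439 ± 45.9 in WT, was below the spread of Myl9 in CKO, while the spreads of the pair overlapped in WT. In WT, Tpm4, Actg2, Myl6, Myh11 and Tagln2 followed, between 213 and 339 in CKO and between 252 and 359 in WT. In CKO, Cnn2 and Des, at 242 each, stood above Myh11 at 213, and many neighbours in that range did not differ beyond their spread.

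Low counted levels were those of Ppp1r14a, Myocd, Lmod1, Synpo2, Actc1 and Tagln, between 5.33 and 25.7 CPM per kilobase in CKO and between 4.93 and 21.5 in WT, with the overlap of Tagln described above. Actc1 ranked 26th of the 34 in CKO and 30th in WT, and Acta2 was the leading actin in both. Cnn1 ranked 21st in CKO and 25th in WT. Acta1, Pln and Sorbs2 were below 1 CPM per kilobase in every library. The order depends on the length used. The authors' gene length exceeds the merged exons 5.20-fold for Flna, at 48908 bases against 9400, and 1.10-fold for Actc1. With the authors' length Flna ranks 11th in WT instead of 4th, while Acta2, Csrp1 and Myl9 lead in both orders.

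**Figure D3:**
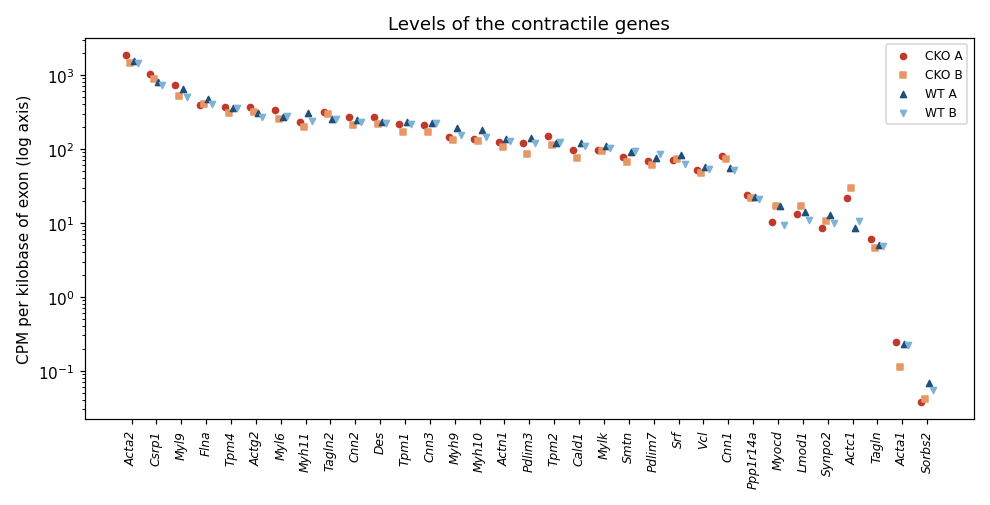
CPM per kilobase of exon (log axis) in each library for 33 contractile genes, ordered by the WT mean. Pln is left out because CKO B had 0 reads. Acta2 is highest in all 4 libraries and the CKO points of Actc1 (red, orange) stand above its WT points (blue), while those of Sorbs2, the lowest gene, stand below.

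Within each gene family the make-up by isoform was set against the summed CPM per kilobase of the same library, a share that scaling between libraries does not touch. Over 6 actins (the 4 above with the cytoplasmic Actb and Actg1), Actc1 made up 0.459% in CKO A and 0.770% in CKO B, against 0.206% in WT A and 0.272% in WT B. Acta2 made up 39.1% and 37.1% in the CKO libraries, against 37.0% and 37.3% in the WT libraries. Actb was the other large share, at 42.7% and 43.4% in CKO and 46.2% and 45.8% in WT. Actg2 held 7.76% and 8.12% in CKO, against 7.29% and 7.09% in WT, and Actg1 held 9.98% and 10.6% in CKO, against 9.36% and 9.51% in WT. The shares of Actc1, Actb, Actg2 and Actg1 did not overlap between genotypes and those of Acta2 did. Those of Acta1 did not overlap either, at 0.00524% and 0.00292% in CKO against 0.00547% and 0.00575% in WT, on 4 to 10 reads. Shares of a family depend on each other, so these are not separate results. Over all tested genes both CKO libraries were higher in CPM than both WT libraries for 27.7% and lower for 29.3%.

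Among the calponins Cnn1 held 14.4% and 16.3% of the family in the CKO libraries, against 10.5% and 10.1% in the WT libraries. Cnn3 was at 36.9% and 36.9% in CKO, against 42.6% and 44.6% in WT, and Cnn2 was the largest share, at 48.6% and 46.8% in CKO, against 46.9% and 45.3% in WT. Among the 4 nonmuscle and smooth muscle myosin heavy chains Myh11 held 44.9% and 42.8% in CKO, against 45.2% and 44.5% in WT. Tpm2, the beta-tropomyosin, held 18.8% and 17.8% of the tropomyosins in CKO, against 15.9% and 16.7% in WT. With 2 libraries against 2 an exact permutation test cannot give a two-sided p below 0.333, so no test was made of these shares.

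**Figure D4:**
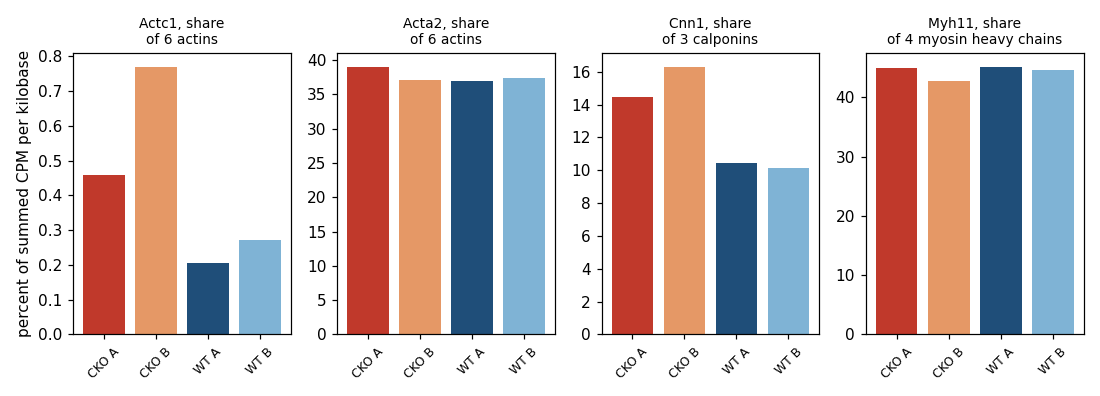
Share of an isoform in the summed CPM per kilobase of its family (percent, axis from 0) for Actc1, Acta2, Cnn1 and Myh11, 1 bar per library. The Actc1 and Cnn1 bars are taller in both CKO libraries, while the Acta2 and Myh11 bars are nearly level across the 4.

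Other genes of the pathway, outside the 34, were read from the same fit. Of 26 tested cofactors and regulators of SRF, 2 were higher and 0 lower (7.69%, background 7.61%). Scx, a tendon bHLH factor gene, stood at 47.0 and 56.9 CPM in the CKO libraries, against 20.9 and 24.7 in the WT libraries (2.28-fold higher, edgeR adjusted p = 0.00468). Klf4, which in mouse muscle cells represses contractile genes, stood at 272 and 282 CPM in CKO, against 137 and 173 in WT (1.79-fold higher, adjusted p = 0.013). Both CKO libraries were above both WT libraries for each. Mrtfa and Mrtfb, the actin-sensing partners of SRF, had log2 changes of -0.30 (adjusted p = 0.144) and -0.19 (adjusted p = 0.427). Klf4 is also an early response gene that cell isolation can induce, and of 24 such dissociation genes 6 were higher and 0 lower (25%, background 7.61%), with Klf4, Ier3, Klf2 and Hspb1 at the lowest p. The 6 became 11 without CKO A, 3 without CKO B and 4 without WT A or without WT B. That list summed to 7073 and 9045 CPM in the CKO libraries, against 6735 and 5726 in the WT libraries, and its part in the Klf4 result was not tested.

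Among 21 further SRF targets outside the contractile set 1 was higher, Srxn1, a sulfiredoxin gene (3.0-fold, adjusted p = 0.00401), and 1 was lower, Filip1l (1.39-fold, adjusted p = 0.0463), together 9.52% beside the background of 7.61%. Filip1l lost its call in each fit that left out a library, in limma-voom and with RLE factors. The median log2 change of the 21 was 0.04.

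Calcium handling had calls in both directions, 3 higher and 3 lower of 31 tested (19.4%, background 7.61%). Camk2d, a calmodulin kinase subunit gene, stood at 62.5 and 70.4 CPM in the CKO libraries, against 35.9 and 36.4 in the WT libraries (1.84-fold higher, adjusted p = 0.00655). Ano1, a calcium-gated chloride channel gene, and Stim1, the store calcium sensor gene, were 1.93-fold and 1.40-fold higher. The lower 3 were Cacna1c, the pore of the L-type calcium channel, its beta subunit gene Cacnb2, and Itpr2, an IP3 receptor gene, at 1.45-fold, 1.41-fold and 1.44-fold. Cacna1c stood at 175 and 208 CPM in CKO, against 290 and 264 in WT (adjusted p = 0.0445).

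Receptors that set muscle tone gave 2 higher and 1 lower of 23 tested (13.0%, background 7.61%). S1pr3, a sphingosine phosphate receptor, was 2.10-fold higher and Ptger4, a prostaglandin E receptor, 3.27-fold (edgeR adjusted p = 0.0175 and 0.0363). Gucy1a1, the nitric oxide sensing cyclase subunit, was 1.62-fold lower, at 103 and 84.7 CPM in CKO, against 159 and 144 in WT (adjusted p = 0.0205). Of 40 other actin, myosin and filament genes 3 were higher and 0 lower (7.5%, near the background of 7.61%). Actn4, the nonmuscle alpha-actinin, was 1.45-fold higher and Pdlim2, a PDZ-LIM gene, 1.49-fold. The third, Mylip, encodes a ubiquitin ligase better known for degrading lipoprotein receptors.

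Of 21 TGF-beta pathway genes, inputs that raise contractile genes in fibroblasts, 0 were higher and 2 lower (9.52%, background 7.61%). Tgfb2 stood at 233 and 215 CPM in the CKO libraries, against 446 and 429 in the WT libraries (1.95-fold lower, adjusted p = 0.00468). Tgfbr3, its coreceptor, was 1.53-fold lower (adjusted p = 0.0293). Of the 18 genes named in these 6 lists as called, more lost the call without WT A or WT B than without CKO A or CKO B. Over all tested genes, too, fewer were called without WT A or WT B than without CKO A or CKO B. Scx, Srxn1, Camk2d and Tgfb2 kept the call in each fit that left out a library.

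**Figure D5:**
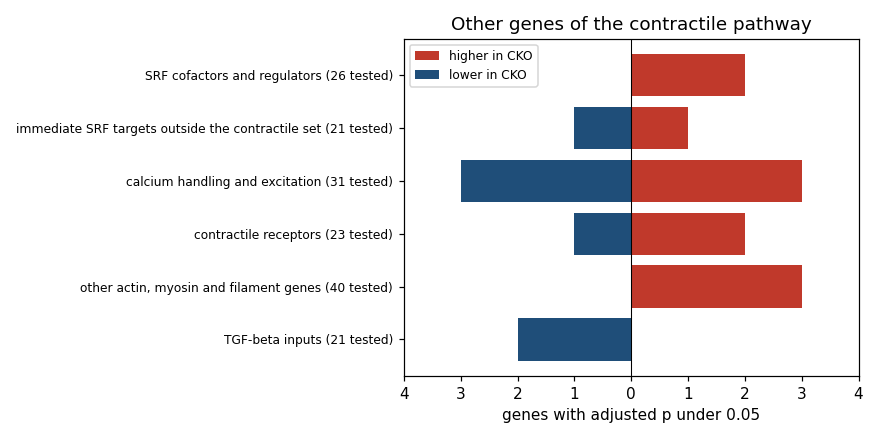
Number of genes with an adjusted p under 0.05 in 6 lists of the contractile pathway outside the 34 genes, higher in CKO to the right (red) and lower to the left (blue). Calcium handling has 3 on each side and the TGF-beta list has 2, both lower.

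Because Actc1 is also a gene of heart muscle, genes of cardiac and skeletal sarcomeres were set beside it. Of 39 such genes, 36 had a read in some library and 21 were tested, of which 2 were higher and 0 lower (9.52%, background 7.61%). Their median log2 change was 0.70, with 15 of the 21 above 0. Tnnt2, cardiac troponin T, stood at 3.39 and 5.39 CPM in the CKO libraries, against 1.58 and 1.43 in the WT libraries (2.90-fold higher, adjusted p = 0.0342). Myh3, an embryonic skeletal heavy chain, had 23 and 26 reads in CKO, against 3 and 3 in WT (adjusted p = 0.0266). Tnnt2 lost its call without any 1 of CKO B, WT A and WT B, and Myh3 in every fit that left out a library. Myh6, the heart's alpha heavy chain, stood at 1.41 and 3.41 CPM in CKO, against 0.966 and 1.13 in WT, so that both CKO libraries lay above both WT libraries, and it did not pass (adjusted p = 0.173). Titin, encoded by Ttn, stood at 0.114 and 0.733 in CKO, against 0.571 and 1.36 in WT. Nppa had 0 and 3 reads in CKO and 0 and 1 in WT. The whole list summed to 68.7 and 106 CPM in the CKO libraries, against 56.7 and 62.7 in the WT libraries. Actc1 is not in the list, and the part of heart or skeletal cells in its rise was not tested.

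Markers of other mesenchymal cells were read beside these values. Of 16 alveolar and ductal myofibroblast markers 1 was higher, Enpp2 (1.40-fold), and 2 lower, Wnt5a (1.72-fold) and Cdh4 (1.76-fold), 18.8% beside the background of 7.61%, and 11 of the 16 were below 0 (median log2 change -0.57). The lower calls numbered 7 in DESeq2, 9 without CKO A and 0 without WT A. Pdgfra, of that list, averaged 365 ± 58.1 CPM in CKO and 554 ± 60.3 in WT (SD, n = 2 each, edgeR adjusted p = 0.0526). Pericyte markers had 1 higher, Ndufa4l2, and 1 lower, Gucy1a1, of 14 tested (14.3%), with Rgs5 at 68.2 and 83.7 CPM in CKO, against 103 and 80.5 in WT. Adventitial fibroblast markers summed to 1963 and 2394 CPM in the CKO libraries, against 1655 and 1718 in the WT libraries, with 6 of 14 higher and 0 lower (42.9%, background 7.61%). The 6 fell to 2 without WT A and to 2 without WT B. Among these Pi16 was 2.22-fold higher, Igfbp6 2.18-fold, Serpinf1 2.60-fold and Dpt 1.91-fold. Alveolar fibroblast markers summed to 3563 and 5923 CPM in CKO, against 3067 and 2783 in WT, with 1 of 13 called (7.69%), Fgf10 (2.19-fold higher). All 13 were above 0 (median log2 change 0.87), and calls numbered 4 in DESeq2, 9 without CKO A, 3 without CKO B and 0 without WT A or WT B. CKO B, the library lower in most contractile genes, was the highest of the 4 in both fibroblast sums. The part of these cell types in the contractile values was not tested.

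Immune markers summed to 88.4 and 62.0 CPM in the CKO libraries, against 37.5 and 51.5 in the WT libraries, and 5 of 13 tested were higher (38.5%, background 7.61%). Among these were Cd74 (2.96-fold), Fcer1g (3.46-fold), Cd14 (3.24-fold) and Laptm5 (2.40-fold). The 5 fell to 1 without WT A, to 2 without WT B and to 0 at an adjusted p under 0.01. Endothelial markers summed to 340 and 230 CPM in CKO, against 227 and 269 in WT, with Plvap 1.96-fold higher and Erg 1.63-fold lower of 14 tested (14.3%). Mesothelial markers summed to 29.1 and 16.2 CPM in CKO, against 12.2 and 24.5 in WT, with Msln at 10.01 and 0.0863 CPM in CKO, against 0.571 and 2.87 in WT.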

How the data were processed

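RNA of 2 CKO and 2 WT libraries was compared. The authors deposited raw read counts, log2 fold changes with a p-value and adjusted p, and gene lengths in 1 table, per the file headers. Count columns were taken by name (Mutant as CKO, Control as WT), and 4 further columns of per-sample values were not used. Per the submitters' processing notes the tools include STAR, Trimmomatic 0.36, cutadapt 2.5, FastQC 0.11.8 and edgeR 3.28.1, and the build is GRCm38.p6. How reads were counted, and whether strand was used, is not given.

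The counts were fitted in R 4.3.3 with edgeR 4.0.16 (filterByExpr with a minimum count of 10, TMM scaling, robust glmQLFit, glmQLFTest) over 15210 genes. SEs are the log2 change over the square root of F, and 95% intervals use the fit's degrees of freedom. On simulated counts for 15210 genes of this comparison 64 of 100 genes changed 2-fold and 84 of 100 changed 4-fold were recovered. Each simulated gene varied by the fitted trend for its level, and the libraries differed only in depth and in those changes. Changes below 2-fold were not simulated, so recovery of smaller ones is not known. Alternatives were DESeq2 1.42.0, limma-voom (limma 3.58.1), RLE factors, library size alone, no filter, a minimum mean of 1 CPM, a threshold of 0.01 on the adjusted p and leaving out each library. Levels by the authors' gene length were added as an alternative after the data were seen. Exon lengths, overlaps and coordinates are from GENCODE M21 (GRCm38). The name of the deposited table gives another GENCODE release, so lengths and overlaps need not match those behind the counts. Depth of 23071657 to 26420648 reads per library limits genes with few reads.

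The 34 genes and all lists were chosen with earlier results of these data known. Some list genes are not reported here. Named outside the 34 are Dnmt1, Pdgfrb, each called list gene (the 4 with the lowest p where more than 4 were called) and preset defining markers. Actb, Actg1, Mrtfa, Mrtfb, Nppa, Ddx3y and the genes overlapping Tagln and Pln were added after their values were seen.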

Additional observations from a re-analysis of the deposited data

How the results depend on the processing

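Actc1 kept its call in every fit tried. Cnn1 kept its direction but not its call without WT A, without WT B and at an adjusted p under 0.01. Contractile genes called higher numbered 1 at an adjusted p under 0.01 and 1 to 2 over the fits without 1 library, and those called lower 0 to 2. Genes called over the whole table numbered 1543 higher and 916 lower with no filter on low counts, 199 higher and 42 lower at an adjusted p under 0.01, and 248 to 1289 higher and 91 to 553 lower without 1 library. The log2 change of Dnmt1 without 1 library ran from -2.11 to -0.72, and it passed with CKO A left out (adjusted p = 3.8e-05) or CKO B left out (0.0401).

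Genes that did not pass changed sign in places. Srf was at 0.00082 in DESeq2, at 0.021 with no filter, and from -0.18 to 0.20 without 1 library. Over the fits without 1 library Acta2 ran from -0.034 to 0.32, Tagln from -0.071 to 0.31, Cnn2 from -0.13 to 0.22, Tpm2 from -0.091 to 0.29, Tpm4 from -0.22 to 0.045, Myl9 from -0.11 to 0.36, Myl6 from -0.087 to 0.31, Des from -0.062 to 0.26 and Myocd from -0.33 to 0.55. In such fits 1 genotype has a single library, which is assumed to vary like the other group. The cause of these shifts was not tested. No paired analysis was possible because the count columns carry no replicate number, and the number that 3 of them share leaves WT A alone, so that leaving out WT A gives the comparison within it.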
